A study of Columba livia with 18 samples.

Results

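The neuronal exocytosis genes described here are SNAP25, STX1A, VAMP1, VAMP2, SYT1, STXBP5, STXBP5L and NSF. They were found by the symbol in the annotation of each gene model, which yielded 13 gene models of these 8 genes among the 20918 gene models in all. SYT1, STX1A, STXBP5, STXBP5L and VAMP2 each had 2 gene models, which were kept apart. The libraries come from the basilar papilla, the auditory epithelium of the pigeon (Columba livia), of 9 birds, each 1 year old. In every bird 30 hair cells with cuticulosomes (iron-rich organelles in the cuticular plate) were picked under the microscope into 1 pool. Another pool took 30 hair cells without them. The labels place the libraries on 3 flow cells with 3 birds on each, which are called sequencing runs here. Whether dissection and library preparation followed the same split is not stated, so a difference between runs can also be one between such batches or birds. The labels name no treatment and no genotype. Both pools of a bird were picked from trypsinized cochlear duct tissue, from which the lagena had been removed, and whether they came from the same digest is not stated. The libraries with cuticulosomes and the libraries without cuticulosomes were compared within birds.

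Vesicle fusion is driven by SNARE proteins. SNAP25 and syntaxin 1A (STX1A) sit on the plasma membrane, the synaptobrevins VAMP1 and VAMP2 sit on the vesicle, and the helices of both sides zip into a complex that pulls the membranes together. Synaptotagmin 1 (SYT1) is a vesicle protein whose C2 domains bind calcium and trigger fusion in neurons, and NSF is the ATPase that takes used SNARE complexes apart. Tomosyn (STXBP5) and tomosyn 2 (STXBP5L) carry a VAMP-like end that occupies the target SNAREs, and they inhibit fusion. Hair cells release glutamate at ribbon synapses onto the afferent nerve, with otoferlin (OTOF) as their calcium sensor in mammals, and whether mammalian inner hair cells use the neuronal SNAREs has been debated.

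Levels are given in FPKM, fragments per kilobase of gene model scaled to the mapped fragments of the library that fit the annotation, so that genes of different length can be compared. Differences are given as log2(FPKM + 1) with minus without cuticulosomes, a scale that understates changes of low genes. The summed FPKM of a library ranged from 558379 to 788454. How many reads stand behind a value cannot be read from FPKM. Relative sequencing depth, estimated from the ratio of the lowest FPKM values of the same genes between libraries, ranged from 0.52 to 1.43. It was lower in the pool with cuticulosomes in 7 of 9 birds (median 0.971 with and 1.12 without), while more gene models were above 0 with cuticulosomes in 8 of 9 birds, and the part of this in genes that are at 0 in some pools was not tested. The library with cuticulosomes of pigeon 435 stood apart: its summed hair cell markers were at 494 FPKM, against 3725 to 5479 in the other libraries with cuticulosomes. Its summed glia markers were at 2489 FPKM, against 0.201 to 47.1 in the other libraries with cuticulosomes, and MBP, a myelin protein, alone was at 1409 FPKM. The differences of the members above 1 FPKM on average and of most marker sums are therefore also given without pigeon 435. Levels, correlations and the other gene lists are given with all birds. In pooled cells, fewer cells of a kind and less RNA per cell cannot be told apart.

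Of the 8 genes, SYT1, NSF and SNAP25 were above 1 FPKM in all 18 libraries, and the vesicle SNARE VAMP2 was at or near 0. The SYT1 model CLIV_020249 (scaffold 1100) had the highest mean of all the models described here, 66.7 ± 30.8 FPKM (SD, n = 18 libraries), and 7.49% of all gene models were higher. NSF (CLIV_016487, scaffold 318) averaged 50.3 ± 34.1 FPKM and SNAP25 (CLIV_015506, scaffold 490) 35.02 ± 24.97 FPKM over the same libraries. SYT1 was the highest of the 8 genes in 10 libraries, NSF in 7 and SNAP25 in 1.

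The middle of the order was held by tomosyn and syntaxin. The STXBP5 model CLIV_005602 averaged 11.6 ± 10.2 FPKM and the STX1A model CLIV_014481 averaged 11.2 ± 10.8 FPKM (SD, n = 18 libraries). The next step down, from 6.37 to 3.85 FPKM, held the other models of STXBP5 and STX1A, the STXBP5L model CLIV_005291 and VAMP1. The STXBP5L model had a median of only 0.092 FPKM, was listed at 0 in 6 libraries and was above 1 FPKM in 8. VAMP1 (CLIV_007987, scaffold 220) averaged 3.85 ± 3.66 FPKM and was listed at 0 in 3 libraries.

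The VAMP2 models CLIV_021344 (scaffold 2235) and CLIV_016173 (scaffold 181) averaged 0.21 and 0.026 FPKM. CLIV_021344 was above 1 FPKM in 1 library, pigeon 458 without cuticulosomes, at 1.83 FPKM. CLIV_016173 was above 0 in 1 library, pigeon 435 with cuticulosomes, at 0.476 FPKM. VAMP2 is the most abundant synaptobrevin of mammalian brain, and its level here gives no reading on protein or on transcript outside these 2 gene models. Its symbol was not found in a RefSeq gene list of another assembly, which held the other 7 member symbols. Whether either model is the VAMP2 gene of the pigeon was not tested.

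Neighbours in the order of mean level mostly did not differ beyond their spread. The paired difference between neighbouring models was taken on the log2(FPKM + 1) scale from the mean of both libraries of each bird (SD, n = 9 birds). It was larger than its own SD for SNAP25 over the STXBP5 model CLIV_005602, at 2.10 ± 1.55, with SNAP25 higher in 16 of 18 libraries. It was also larger for VAMP1 over the STXBP5L model CLIV_005290, at 1.39 ± 0.94. The other 10 neighbouring pairs differed by less than 1 SD, among them SYT1 over NSF at 0.59 ± 1.85.

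**Figure D1:**
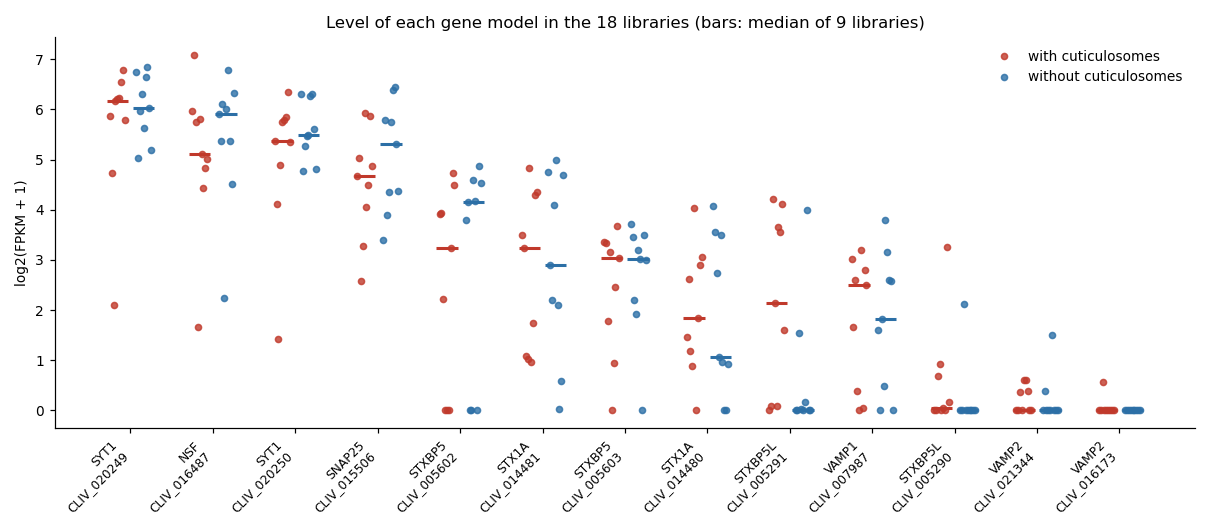
The y axis gives log2(FPKM + 1) of each of the 13 gene models, ordered by mean FPKM, with a point for each of the 9 libraries with cuticulosomes (red) and the 9 without (blue) and a bar at the median of each group. SYT1, NSF and SNAP25 have the highest means and are above 1 FPKM in all 18 libraries, STX1A, STXBP5 and VAMP1 spread from 0 or near 0 upward, and the VAMP2 models lie at or near 0.

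For 4 genes both models were neighbours on 1 scaffold, and whether they are parts of 1 transcript was not tested. For SYT1 they moved together: CLIV_020249 was above CLIV_020250 in 18 of 18 libraries, by 0.54 ± 0.25 on the log2(FPKM + 1) scale, and Spearman's rho over the 18 libraries was 0.91. Both SYT1 models carry C2 domains. These correlations are descriptions, since the models share libraries and depth.

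The models of STX1A and STXBP5 were less alike. The STX1A model CLIV_014481 holds the syntaxin and SNARE domains and CLIV_014480 only the syntaxin N-terminal domain. Both were above 1 FPKM in 12 libraries, neither in 3, and only CLIV_014481 in 3, with a rho of 0.76. The STXBP5 model CLIV_005603 holds the WD40 repeats and the Lgl domains, whereas no domain is listed for CLIV_005602. Both were above 1 FPKM in 12 libraries and neither in 3, with a rho of 0.69, and in the remaining 3 libraries only CLIV_005603 was.

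STXBP5L was uneven between its models. CLIV_005291 holds the Lgl C-terminal domain and CLIV_005290 the WD40 and LLGL domains. Both were above 1 FPKM in 2 libraries, only CLIV_005291 in 6 and neither in 10. The level of STXBP5L thus stood mainly on the model with the Lgl C-terminal domain.

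**Figure D2:**
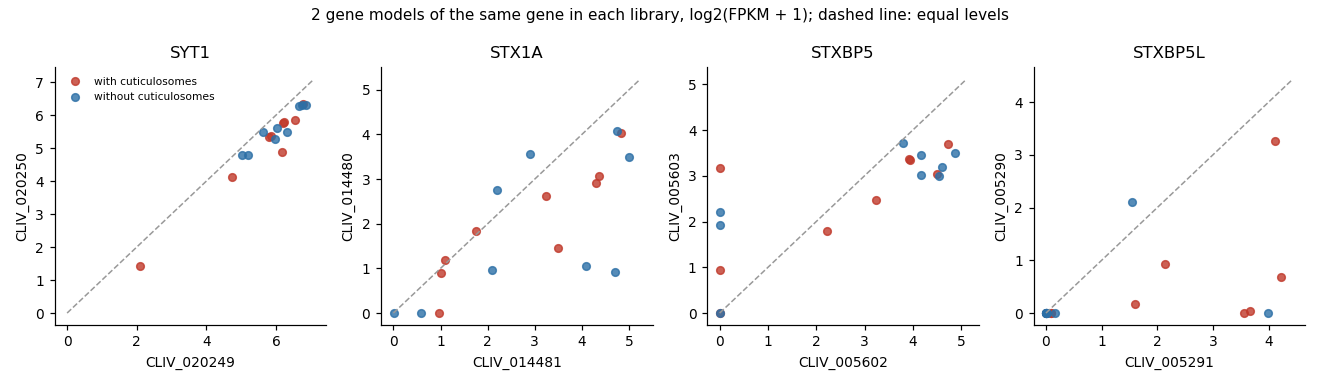
Each point is a library, with log2(FPKM + 1) of the higher gene model on the x axis and of the lower gene model on the y axis, for SYT1, STX1A, STXBP5 and STXBP5L; red is with and blue without cuticulosomes. The SYT1 points follow a line just under equality (Spearman's rho 0.91), whereas STXBP5L has 6 libraries in which only CLIV_005291 is above 1 FPKM.

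None of the members tested for a difference between hair cells with and without cuticulosomes passed the threshold. Values of log2(FPKM + 1) were compared by limma, blocked by bird, for the 11393 gene models whose mean FPKM exceeded 1, and p-values were adjusted by Benjamini-Hochberg over all of these. By this test 0 gene models were called at an adjusted p under 0.05 (background 0%), and the smallest adjusted p was 0.902. At an unadjusted p under 0.05, 372 gene models were higher with cuticulosomes (3.27%) and 229 were lower (2.01%). Of the 13 member models 10 had a mean FPKM above 1. STXBP5L was among the genes that the study called from these same libraries, so it is described without a test. The other 9 tested models had a median difference of -0.32, with 7 lower and 2 higher with cuticulosomes, against a median of 0.05 with 46.1% lower and 53.9% higher over all gene models tested. Over the same test the hair cell markers had 10 of 13 models lower and a median of -0.32, and the glia markers 7 of 7 higher and a median of 0.70, and their part in the differences of the members was not tested beyond leaving out pigeon 435. Of these 9 models 0 had an unadjusted p under 0.05 in limma, the smallest being 0.151, and 0 were higher or lower in at least 8 of 9 birds, where the background was 1.76% higher and 1.3% lower. Without pigeon 435, 8 of the 9 were lower, the median was -0.20 and the smallest adjusted p by limma was 0.959. Over all gene models tested without this bird, 5917 of 10966 were higher with cuticulosomes and the median was 0.05. Some of the 8 lay close to 0, and SYT1, STX1A and STXBP5 each count with 2 models. The SYT1 models were then at -0.02 (CLIV_020249) and -0.20 (CLIV_020250). SNAP25 was then at -0.45, NSF at -0.32, the STX1A models at -0.02 (CLIV_014481) and 0.34 (CLIV_014480), the STXBP5 models at -0.73 (CLIV_005602) and -0.22 (CLIV_005603), and VAMP1 at -0.08.

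SNAP25, a target SNARE of the plasma membrane, had overlapping levels in both groups. Its FPKM with cuticulosomes was 4.95 at the lowest, 24.4 at the median and 59.6 at the highest, and without cuticulosomes it was 9.59, 38.7 and 86.0. The highest level belonged to pigeon 513 without cuticulosomes, whose other pool was at 21.6 FPKM. The difference was -0.55 (95% interval -1.39 to 0.29; adjusted p = 0.902 by limma), with SNAP25 lower with cuticulosomes in 5 of 9 birds.

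The other target SNARE, STX1A, varied more than SNAP25. CLIV_014481 ran from 0.96 FPKM over a median of 8.42 to 27.6 with cuticulosomes, and from 0.013 over 6.49 to 30.8 without. The highest level in each group was that of pigeon 451, while the lowest was that of pigeon 458 with and pigeon 513 without cuticulosomes. The difference was -0.14 (95% interval -1.46 to 1.17; adjusted p = 0.985 by limma).

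The shorter STX1A model CLIV_014480 had a median of 2.60 FPKM with and 1.09 FPKM without cuticulosomes, with ranges of 0 to 15.3 and 0 to 15.8. Its difference was 0.13 (95% interval -1.18 to 1.44; adjusted p = 0.986 by limma), and its direction was not the same in the 3 runs. The mean difference was -1.70 in run 1, -0.20 in run 2 and 2.30 in run 3, where pigeons 513 and 514 were at 0 without cuticulosomes. The interaction of pool and run for this model had an unadjusted p of 0.017 and an adjusted p of 0.994 by limma. Over all gene models 4.55% had an interaction p under 0.05 without adjustment and 0 after it.

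VAMP1, the only synaptobrevin of the 8 genes with a mean above 1 FPKM, was present in some pools of both kinds. Its FPKM was 0 at the lowest, 4.69 at the median and 8.15 at the highest with cuticulosomes, and 0, 2.54 and 12.9 without. The groups overlapped, and pigeon 451 held the lowest value with and the highest without cuticulosomes. The difference was 0.02 (95% interval -1.34 to 1.38; adjusted p = 0.998 by limma). VAMP1 was higher with cuticulosomes in 6 of 9 birds.

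SYT1, the calcium sensor, was high in every library except that of pigeon 435 with cuticulosomes. CLIV_020249 had 3.31 FPKM there, while the other libraries with cuticulosomes had 25.7 to 109 FPKM. The median was 71.2 FPKM with and 64.3 FPKM without cuticulosomes, and the libraries without cuticulosomes ranged from 31.8 to 115 FPKM. The groups overlapped. In the same library of pigeon 435 CLIV_020250 had 1.69 FPKM, against 16.4 to 80.6 in the other libraries with cuticulosomes, and OTOF had 151 FPKM.

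The differences of SYT1 rested on that bird. CLIV_020249 differed by -0.44 (95% interval -1.28 to 0.39) and CLIV_020250 by -0.60 (95% interval -1.45 to 0.25), each with an adjusted p of 0.902 by limma. Without pigeon 435 these became -0.02 and -0.20. The mean difference of CLIV_020249 was -1.68 in run 1, which holds pigeon 435, 0.00 in run 2 and 0.34 in run 3. In pigeon 435 low SYT1 went with low hair cell markers and high glia and supporting cell markers (3588 FPKM summed, the highest of the 18 libraries), and their part in the difference was not tested beyond leaving out this bird.

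NSF, the disassembly ATPase, was low in both pools of pigeon 450. It had 2.18 FPKM there with and 3.74 FPKM without cuticulosomes, while the other birds had 20.5 to 135 FPKM with and 21.8 to 110 FPKM without. The same bird was also low in OTOF, at 300 FPKM with and 589 FPKM without cuticulosomes, and in SLC17A8, the vesicular glutamate transporter of hair cells, at 87.7 and 156 FPKM. Its summed hair cell markers, at 3811 FPKM with and 3997 FPKM without cuticulosomes, lay toward the low end of the birds. With cuticulosomes only pigeon 435 (494 FPKM) and pigeon 513 (3725 FPKM) were lower, and the highest was pigeon 515 (5479 FPKM). Without cuticulosomes only pigeon 435 (2580 FPKM) was lower, and the highest was pigeon 451 (5694 FPKM). OTOF and SLC17A8 were looked at in pigeon 450 after the values of NSF had been seen. The pool with cuticulosomes of pigeon 450 had the lowest relative depth, 0.52, whereas its other pool was at 1.1. The summed FPKM of its pools, 788454 with and 655548 without cuticulosomes, were the highest of the 18 libraries. The part of depth and of the summed FPKM in these levels was not tested.

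Between the groups NSF had a median of 33.6 FPKM with and 58.8 FPKM without cuticulosomes. The difference was -0.32 (95% interval -1.05 to 0.40; adjusted p = 0.903 by limma), with NSF lower with cuticulosomes in 6 of 9 birds. The mean difference of NSF was 0.48 in run 1, -0.82 in run 2 and -0.64 in run 3. Its ranges overlapped, and the highest value of all, 135 FPKM, was that of pigeon 434 with cuticulosomes.

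The levels of tomosyn, STXBP5, depended on the gene model. CLIV_005602 was at 0 FPKM in 6 libraries and at or above 3.65 FPKM in the others. With cuticulosomes its FPKM was 0 at the lowest, 8.40 at the median and 25.6 at the highest, and without cuticulosomes 0, 16.9 and 28.2. In run 2 it was at 0 FPKM in all 3 pools with cuticulosomes, while without cuticulosomes it was at 0 FPKM in pigeon 450, 23.3 FPKM in pigeon 451 and 17 FPKM in pigeon 458. Its mean difference was 0.70 in run 1, -2.92 in run 2 and 1.02 in run 3, and the difference over the 9 birds was -0.40 (95% interval -1.96 to 1.17; adjusted p = 0.953 by limma).

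The domain-bearing STXBP5 model CLIV_005603 was listed at 0 in no library and had a CV of 62.1%, against 88.3% for CLIV_005602. Its FPKM ranged from 0.0076 over a median of 7.26 to 11.9 with and from 0.0074 over 7.13 to 12.2 without cuticulosomes. The lowest values were those of pigeon 451 with and pigeon 513 without cuticulosomes, so the low pools were not of 1 kind. The difference was -0.25 (95% interval -1.48 to 0.99; adjusted p = 0.968 by limma).

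Tomosyn 2, STXBP5L, had the largest difference of the 10 models, higher with cuticulosomes. The study called it from these same libraries, so its size and direction here are no separate support. The FPKM of CLIV_005291 (scaffold 31) with cuticulosomes was 0 in pigeon 433, 0.061 in 434, 17.7 in 435, 3.40 in 450, 0.069 in 451, 11.6 in 458, 10.8 in 513, 16.3 in 514 and 2.04 in 515. Without cuticulosomes it was 0 in pigeons 433, 434, 451, 514 and 515, 1.93 in 435, 0.018 in 450, 0.116 in 458 and 14.9 in 513. It was thus above 1 FPKM in 6 of 9 pools with and 2 of 9 pools without cuticulosomes, higher with cuticulosomes in 7 birds, lower in 1 and equal at 0 in 1. Pigeons 433, 434 and 451 had almost none in either pool, and pigeon 513 had it in both. The group levels overlapped.

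CLIV_005291 averaged 6.88 ± 7.23 FPKM with cuticulosomes and 1.88 ± 4.92 FPKM in the pools lacking them (SD, n = 9 birds), and the mean difference on the log2(FPKM + 1) scale was 1.53 with an SD between birds of 1.68. It was above 0 in each run, at 0.92, 1.90 and 1.76. In run 1 it stood on pigeon 435, since pigeon 433 was at 0 FPKM in both pools and pigeon 434 at 0.061 FPKM with and 0 FPKM without cuticulosomes. The pool of pigeon 435 with the high glia and low hair cell markers had the highest level of this model, and without that bird the difference was 1.38, with 6 of 8 birds higher. The other model CLIV_005290 was listed at 0 in 12 libraries. It was above 1 FPKM only in pigeon 514 with cuticulosomes, at 8.59 FPKM, and in pigeon 435 without, at 3.33 FPKM, so in pigeon 435 its direction was opposite to that of CLIV_005291.

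The tomosyns were high together in the pool with cuticulosomes of pigeon 514 and apart in other pools. The domain-bearing STXBP5 model CLIV_005603 was above STXBP5L CLIV_005291 in 12 of 18 libraries. In pigeon 435 with cuticulosomes STXBP5L was at 17.7 FPKM and this STXBP5 model at 2.46 FPKM, and in pigeon 433, where STXBP5L was at 0 FPKM in both pools, STXBP5 was at 9.27 and 12.2 FPKM. In pigeon 513 without cuticulosomes STXBP5L was at 14.9 FPKM and this STXBP5 model at 0.0074 FPKM. In pigeon 514 with cuticulosomes both were high, with STXBP5L at 16.3 FPKM and this STXBP5 model at 11.9 FPKM.

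**Figure D3:**
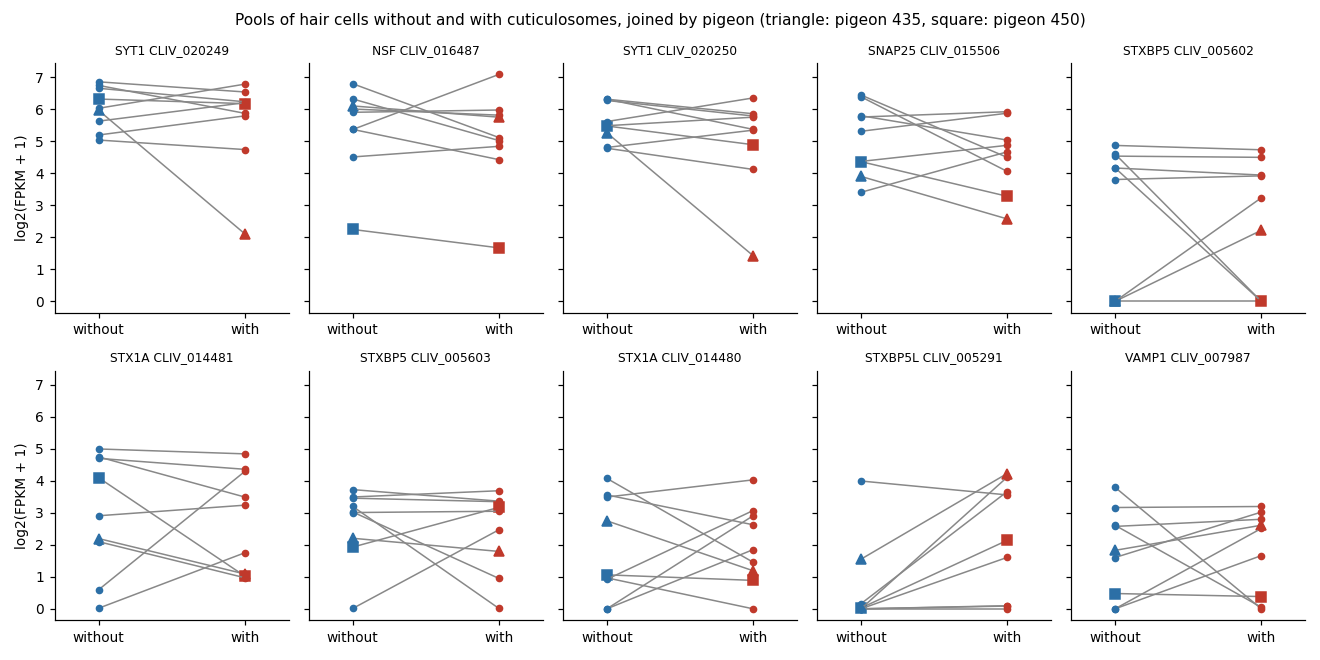
Each line joins the pool without and the pool with cuticulosomes of a bird, on a y axis of log2(FPKM + 1), for the 10 gene models above 1 FPKM on average. In both SYT1 panels the steepest line is that of pigeon 435 (triangle), both NSF pools of pigeon 450 (square) lie below those of the other birds, and 7 of the 9 STXBP5L lines rise.

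**Figure D4:**
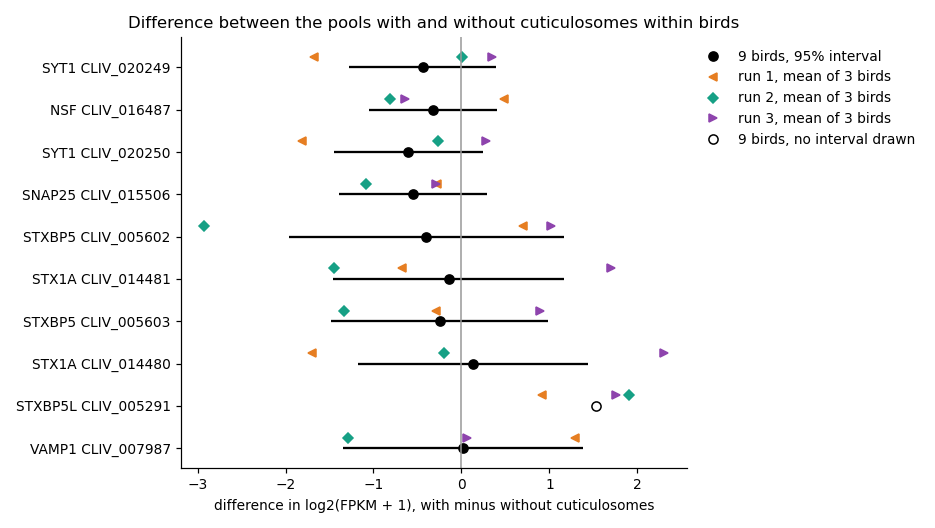
The x axis gives the difference in log2(FPKM + 1), with minus without cuticulosomes: black points with 95% intervals for the 9 birds from limma, an open point without an interval for STXBP5L, and coloured points for the mean of the 3 birds of each run. All 9 intervals include 0, and the run means lie on both sides of 0 for 8 of the 10 models, the exceptions being SNAP25 (lower in each run) and STXBP5L (higher in each run). The study called STXBP5L from these same libraries, so its direction over the runs is no separate support, and its run 1 mean stands on pigeon 435.

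The SNAREs, regulators, calcium sensors and vesicle proteins that work beside these 8 genes were taken as lists, of which 0 gene models were called. Of 14 symbols of other exocytic SNAREs, 13 were in the annotation and 10 gene models were tested, of which 6 were higher and 4 lower with cuticulosomes, with a median of 0.19. Among the SNARE regulators 13 of 26 tested models were higher and 13 lower, with a median of 0.06. The synaptotagmins and other C2 domain sensors had 6 higher and 3 lower and a median of 0.16, and the synaptic vesicle membrane proteins 3 higher and 4 lower and a median of -0.16. The median over all gene models tested was 0.05.

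Among the vesicle SNAREs VAMP7 had the highest level. VAMP7, a SNARE of late endosomes and lysosomes, averaged 187 ± 71.7 FPKM (SD, n = 18 libraries) and was above VAMP1 in 18 of 18 libraries. VAMP4, of the trans-Golgi network and endosomes, averaged 46.2 FPKM, VAMP3 10.9 FPKM and VAMP8 10.3 FPKM. VAMP7 was higher with cuticulosomes in 1 of 9 birds, with a difference of -0.34 (SE 0.21, adjusted p = 0.902 by limma). Over all gene models tested, 1.3% were lower with cuticulosomes in at least 8 of 9 birds. SNAP29, a relative of SNAP25 found on many intracellular membranes, averaged 16.6 FPKM and SNAP23 5.29 FPKM. Of the other syntaxins, STX4 averaged 10.3 FPKM and STX2 8.12 FPKM, and STX3 and STX11 were listed at 0 in all 18 libraries. VAMP3, VAMP8, SNAP23 and these syntaxins were named after their values had been seen.

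The cofactors of NSF were present. The SNAP adaptors that bring NSF to the SNARE complex averaged 52.3 FPKM for NAPG, 42.3 FPKM for NAPB and 16.9 FPKM for NAPA. SNAPIN, which binds SNAP25 and lysosome-related complexes, had the highest level of the regulators, at 115 FPKM. The complexins clamp neuronal SNARE complexes: CPLX2 averaged 0.134 FPKM, and CPLX3 and CPLX4 were listed at 0 in all 18 libraries. No gene model carried the symbol CPLX1. NAPB, NAPA and the complexins were also named after their values had been seen.

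The regulators with an unadjusted p under 0.05 were gene models of RAB3B, RAB3A and RIMS2, from families that tether vesicles to the active zone, and other models of these families differed by less. RAB3B averaged 6.64 FPKM with and 2.53 FPKM without cuticulosomes, a difference of 1.36 (SE 0.55, adjusted p = 0.902 by limma). RAB3B was listed at 0 in 7 libraries, among them both pools of pigeons 433 and 434. In pigeon 514 it was at 13.9 FPKM with and 13.7 FPKM without cuticulosomes. The RIMS2 model CLIV_020241 was lower with cuticulosomes in 8 of 9 birds, at 42.2 against 60.1 FPKM, a difference of -0.97 (SE 0.44, adjusted p = 0.902 by limma). Over all gene models tested, 1.3% were lower in at least 8 of 9 birds. Pigeon 450 had 0.41 FPKM of this RIMS2 model with and 34.5 FPKM without cuticulosomes, and pigeon 435 had 9.55 and 39.6 FPKM. The weight of these birds in the difference was not tested. The RAB3A model CLIV_000225 averaged 3.43 FPKM, was listed at 0 in 8 libraries and differed by 1.24. The more abundant RAB3A model CLIV_007089, at 49.1 FPKM, differed by -0.19. The number of CLIV_000225 follows that of the RAB3B model, CLIV_000224, and whether both are parts of 1 gene was not tested. Of the 26 models 2 were higher and 1 was lower at an unadjusted p under 0.05 by limma, beside 3.27% and 2.01% over all models tested.

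The other calcium sensors were led by OTOF at 1193 ± 560 FPKM (SD, n = 18 libraries). It was above SYT1 in 18 of 18 libraries, and its mean was 17.9 times that of the SYT1 model CLIV_020249. SYT10 averaged 47.9 FPKM and was below SYT1 in 11 of 18 libraries, and SYT11 averaged 24.9 FPKM. SLC17A8, which loads glutamate into the vesicles of hair cells, averaged 585 ± 308 FPKM, against 25.04 FPKM for SYNGR2, 10.96 FPKM for SV2C and 10.5 FPKM for SYN2.

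**Figure D5:**
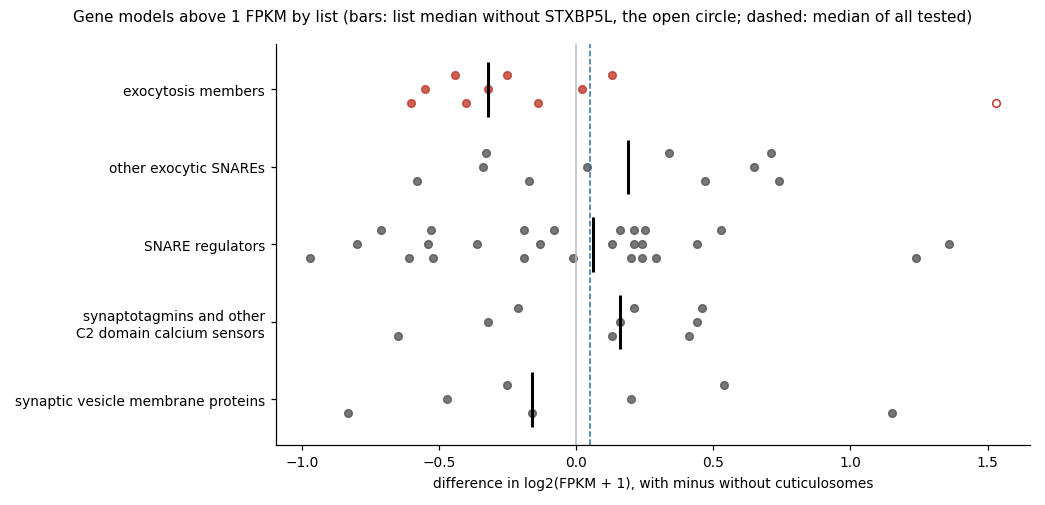
Each point is a gene model with a mean FPKM above 1, placed by its difference in log2(FPKM + 1), with minus without cuticulosomes, in the list on the y axis; black bars are list medians, the dashed line is the median of all gene models tested (0.05), and STXBP5L is the open circle, left out of its list's median. The 9 filled points of the 8 genes have a median of -0.32, and the 4 other lists have medians of -0.16 to 0.19.

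Several members are also known from nerve fibres, and the neuron and nerve terminal markers were measured beside them. Their sum ranged from 462 to 1087 FPKM with and from 485 to 895 FPKM without cuticulosomes. It was led by NEFL (CLIV_012488) at 228 FPKM, STMN2 at 197 FPKM and MAP2 (CLIV_004121) at 195 FPKM on average. SYN2 (CLIV_013451) averaged 10.5 FPKM, ELAVL4 4.78, NEFM 4.69, RBFOX3 1.45, NEFH (CLIV_009121) 0.923 and GAP43 0.402 FPKM. CHAT and PRPH were listed at 0 in all 18 libraries. The sum thus stood mainly on NEFL, STMN2 and MAP2, and whether their RNA came from nerve terminals was not tested. The mean log2 difference of the sum was 0.03 (5 of 9 birds higher; p = 0.762 in an exact sign-flip permutation test, two-sided, and 0.793 adjusted over 5 lists). The summed hair cell markers differed by -0.29 (higher in 4 of 9 birds; exact permutation p = 0.316, adjusted 0.599) and the supporting cell markers by 0.33 (higher in 5 of 9 birds; exact permutation p = 0.301, adjusted 0.599). The glia markers differed by 0.34 (higher in 5 of 9 birds; exact permutation p = 0.793, adjusted 0.793) and the red blood cell markers by 0.46 (higher in 7 of 9 birds; exact permutation p = 0.359, adjusted 0.599). Without pigeon 435 the hair cell markers differed by -0.02, the glia markers by -0.31 and the supporting cell markers by 0.28 (adjusted exact permutation p = 0.719 for each), and the red blood cell markers by 0.89 (adjusted exact permutation p = 0.117). The supporting cell markers summed to a median of 897 FPKM with and 799 FPKM without cuticulosomes, led by TECTB at 400 FPKM, GJB6 at 307 FPKM and COCH at 164 FPKM on average, while SOX2 and GFAP averaged 0.66 and 0.021 FPKM. The part of any of these cell types in the levels of the 8 genes was not tested.

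The gene models whose levels over the 18 libraries were most like each member were found by Spearman's rho among 10054 gene models. SNAP25 was most like RTN1, a reticulon of the endoplasmic reticulum of neurons, with a rho of 0.82, followed by DNAJB6 (0.78) and SCARB2 (0.75). NSF was most like ARHGAP17 (0.87), ERLIN2 (0.83) and HDAC4 (0.80). VAMP1 was most like SLC12A9 (0.87), WDR44 (0.80) and MCAT (0.77). For STXBP5L these were ASS1 (0.82), ZIC1 (0.78) and TXN2 (0.74).

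For the genes with 2 models, the SYT1 models were each most like the other (0.91), and CLIV_020250 was next most like TAB1 (0.85) and WDFY2 (0.81), and CLIV_020249 most like WDFY2 (0.75) and ZCCHC4 (0.75). The STX1A model CLIV_014481 was most like FILIP1L (0.83), MYBBP1A (0.81) and FGF6 (0.78), and CLIV_014480 like CLSTN1 (0.82), the unannotated CLIV_013661 (0.80) and MYBBP1A (0.77). The STXBP5 model CLIV_005602 was most like ODC1 (0.79), QTSA-19294 (0.79) and CCDC40 (0.78), and CLIV_005603 like MFF (0.76) and the unannotated CLIV_000216 (0.75) and CLIV_008281 (0.73). These are descriptions over libraries that share birds, runs and depth. The 3 named for each model are the highest of 10054 values of rho over only 18 libraries. How high such values run among unrelated models was not tested. No other member of the 8 genes was among the first 3 of any member.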

How the data were processed

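Single-end reads of 50 bases from libraries made by template switching and tagmentation, which keep no strand, were aligned by the authors with TopHat 1.4.1 to a pigeon genome with at most 1 hit per read, and the deposited FPKM of 20918 gene models were estimated by the authors with Cufflinks 1.3.0 with bias correction, 1 column per library. The deposited table also holds the authors' own comparison by HTSeq 0.6.1p1 counts and DESeq2 1.10.1 (mean signal, fold change, test score and p-values), which was not used. Reads of close paralogs or of antisense genes could not be told apart, and a gene split over gene models has its reads split.

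Models with a mean FPKM above 1 (11393) were tested with limma 3.58.1 in R 4.3.3 on log2(FPKM + 1) with a trend, the bird as a block, Benjamini-Hochberg adjustment and a threshold of 0.05. These steps were tried on simulated data with normal noise, which lack the many values at 0 of the low genes and so do not cover such genes. The bird of each library comes from the labels, which number both pools of a bird alike. The deviations of both pools of a bird from their group means correlated at 0.121 to 0.591 across gene models, and each of the 9 libraries with cuticulosomes was closest to that of its own bird. Marker sums were compared by the exact sign-flip permutation test over 9 birds, with scipy 1.17.1 under Python 3.11.15, beside pandas 2.3.3 and numpy 2.4.6; figures were drawn in matplotlib 3.10.9. Relative depth came from the most common ratio of the same gene's FPKM between each pair of libraries, among low values. Of the library pairs 74.5% lay within 0.1 log2 of the estimate.

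The members and lists were chosen with earlier results of these data known. All member models are named, and of each other list the 3 models with the highest mean FPKM and the model with the smallest p in each direction. For each member with a mean FPKM above 1 the 3 models with the highest rho over 18 libraries are named, among models with a mean above 1 FPKM and above 0 in at least 9 libraries. Alternatives were a pseudocount of 0.1, other filters, no block, other scalings, no trend, each bird and each run left out, and, chosen after seeing the data, an exchange of the libraries without cuticulosomes of pigeons 434 and 435, whose names differ between tables of the study. No sequence is shown, since none was used here.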

Additional observations from a re-analysis of the deposited data

Results flagged for a closer look

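In 35 groups of 9 libraries, 14 values lay so far from the other 8 that the gap exceeded Dixon's 95% critical value of 0.493 of the group's range on the log2(FPKM + 1) scale, and chance alone flags about 1 in 20 groups. That rate does not hold for groups in which nearly all values are 0, as for VAMP2 and STXBP5L, where a value above 0 stands apart by construction. SYT1 in the pool with cuticulosomes of pigeon 435 was the lowest of its group in both models, at 3.31 FPKM (CLIV_020249) and 1.69 FPKM (CLIV_020250). In the same pool the summed hair cell markers were at 494 FPKM, the summed glia markers at 2489 FPKM and the VAMP2 model CLIV_016173 at 0.476 FPKM. The pool without cuticulosomes of pigeon 435 had summed hair cell markers of 2580 FPKM, the lowest of its group, and summed red blood cell markers of 37327 FPKM, against 475 to 2077 FPKM in the other pools without cuticulosomes. The STXBP5L model CLIV_005290 was there at 3.33 FPKM and at 0 in the other pools without cuticulosomes.

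NSF in pigeon 450 was the lowest of its group in both pools, at 2.18 FPKM with and 3.74 FPKM without cuticulosomes. In the pool without cuticulosomes of pigeon 513 the STXBP5L model CLIV_005291 was at 14.9 FPKM, against 0 to 1.93 FPKM in the others, and the STXBP5 model CLIV_005603 was at 0.00738 FPKM, against 2.8 to 12.2 FPKM in the others. The STXBP5L model CLIV_005290 was at 8.59 FPKM in pigeon 514 with cuticulosomes, and the VAMP2 model CLIV_021344 at 1.83 FPKM in pigeon 458 without cuticulosomes.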

How the results depend on the processing

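Other filters, no block, no trend and the exchange of libraries leave each mean difference as it is, so they cannot change a sign. With these included, of 199 values of the 10 member models above 1 FPKM on average under the alternatives, 178 kept their direction and 21 changed sign. NSF, SNAP25 and STXBP5L kept theirs under each alternative run, but not their size: STXBP5L went from 1.53 to 2.95 with a pseudocount of 0.1, and NSF from -0.32 to -0.73 without run 1 and to -0.08 without run 2. For STXBP5L the constant direction is no separate support, since the study called it from these same libraries. STX1A CLIV_014481 changed to 0.091 with a pseudocount of 0.1, to 0.12 without run 1 and to 0.51 without run 2, and CLIV_014480 to -0.95 without run 3. Without run 2 STXBP5 CLIV_005602 changed to 0.86 and CLIV_005603 to 0.30, and without run 1 SYT1 CLIV_020249 changed to 0.17, SYT1 CLIV_020250 to 0.004 and VAMP1 to -0.61; these runs hold 3 birds each. With each bird left out in turn, the difference ranged from -0.62 to 0.22 for STX1A CLIV_014481, from -0.21 to 0.48 for CLIV_014480, from -0.85 to 0.13 for STXBP5 CLIV_005602, from -0.58 to 0.12 for CLIV_005603, from -0.29 to 0.50 for VAMP1, from -0.58 (without pigeon 434) to -0.155 (without 458) for NSF, from -0.78 (without 433) to -0.33 (without 458) for SNAP25, from 1.205 (without 514) to 1.77 (without 513) for STXBP5L, from -0.03 to 0.09 for the summed neuron markers and from -0.31 to 0.62 for the summed glia markers, which turned negative without pigeon 435. Over all gene models 0 were called under any alternative, with a smallest adjusted p of 0.718 to 1 by limma. At an unadjusted p under 0.05, 372 were higher and 229 lower with the replicate block and 182 and 113 without it. Upper quartile scaling gave 682 higher and 108 lower (86.3% higher, against 61.9%) and moved the median of all models from 0.05 to 0.19, and leaving out run 3 gave 244 and 261 (48.3% higher). Exchanging the libraries of pigeons 434 and 435 without cuticulosomes gave 268 and 171 and left each mean difference as it was. The cause of these changes was not tested. Depth limits the low genes: the reads behind a value of 0 are unknown, so VAMP2, CPLX3, CPLX4 and STX3 are listed at 0 or near it and not shown to be absent.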
